A study of Mus musculus with 5 samples.

Results

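The genes described here are 81 nuclear genes of the mitochondrial respiratory chain and of its assembly, of 17742 genes measured. They were taken by name: every gene whose symbol begins with Nduf, Uqcr, Atp5 or Cox4 to Cox8, or is Sdha, Sdhb, Sdhc or Sdhd, leaving out the muscle-type isoforms Cox6a2, Cox7a1 and Cox8b. The rule found 92 probes. The brightest probe stood for each gene, 75 genes were found by the symbol of the array annotation, and 6 only by the current symbol (Atp5mpl, Ndufaf5, Ndufaf6, Ndufaf7, Ndufaf8 and Ndufb1). Of the 81 genes, 70 encode structural subunits or close partners of the complexes: 33 of complex I, 4 of complex II, 6 of complex III, 15 of complex IV and 12 of complex V. The other 11 are 8 complex I assembly factors of the Ndufaf series, Dmac2 and Dmac2l, whose older symbols begin with Atp5, and Emc8, which was found only through the older symbol Cox4nb and encodes no respiratory chain protein.

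The study followed mouse embryonic stem cells (ESCs) as they differentiated towards heart muscle, with and without knockdown of Linc1405, a long non-coding RNA. Transcripts were measured on single-colour microarrays, with 1 array in each of 5 groups. All cells derive from 1 ESC line, 46C. ESCs at day 0, labelled control, grew on feeder cells in 15% fetal bovine serum, with 1000 U/ml of LIF, a cytokine that keeps them pluripotent, and were harvested once the feeder layer had been taken away. The day 4 cells, labelled mesoderm, were a control array and a Linc1405 knockdown array from serum-free medium with N2, B27, Bmp4 at 0.2 ng/ml, Activin A at 5 ng/ml and VEGF at 5 ng/ml. The day 10 cells, labelled cardiomyocytes, were a control array and a knockdown array from StemCell Pro-34 medium with bFGF at 10 ng/ml, VEGF at 5 ng/ml and FGF10 at 25 ng/ml. The knockdown arrays are described as MES_1405KIpA (day 4) and CM_1405KIpA (day 10), a name that is not spelled out. The labels do not describe how the knockdown was made or how many clones it rests on, and the level of Linc1405 was not analysed here.

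The respiratory chain of the inner mitochondrial membrane passes electrons from NADH (complex I) and succinate (complex II) to ubiquinone, then through complex III and cytochrome c to complex IV, which reduces oxygen. Complexes I, III and IV pump protons, and complex V, the ATP synthase, uses the gradient to make ATP. Heart muscle is among the tissues richest in these complexes, while pluripotent cells draw much of their ATP from glycolysis. Some membrane subunits of complexes I, III, IV and V are encoded by mitochondrial DNA, and none of the 13 genes of that kind was measured, so the values below concern nuclear genes alone.

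Marker genes were checked against the labels. Of the 8 pluripotency markers 6 were measured, and all 6 were at least 2-fold lower in control day 4 cells than in ESCs. Of 7 mesoderm markers, 6 were at least 2-fold higher at day 4 than in ESCs, the exception being Eomes. All 8 measured cardiomyocyte markers of 14 were at least 2-fold higher in control cells at day 10 than at day 4. The summed intensity of those 8 markers was 5715 at day 4 and 436515 at day 10 in control cells, and 5923 and 220889 in knockdown cells. Sums of this kind are weighted towards the brightest probes, and Tnnt2, unlike the other markers of the list, was higher in knockdown than in control cells at day 10. The day 10 cultures also held transcripts of other cell types: the summed intensity of 6 liver-type endoderm markers was 173224 in control and 25509 in knockdown cells, that of 5 epicardium markers was 34702 and 126798, and that of 6 fibroblast and matrix markers was 216771 and 227044. The fibroblast and matrix sum was 34406 on the ESC array and 1836 on the control day 4 array. On these arrays the log2 intensities were 13.80 and 8.94 for Dcn, 13.77 and 9.25 for Postn, and 12.39 and 8.27 for Col1a2. Lum lay at 9.15 and 6.64. Col1a1 went the other way (7.29 and 7.84), and Col3a1 was 6.64 on both. The source of this ESC signal, and its part in the differences between ESCs and day 4, was not tested.

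Levels are log2 intensities after quantile normalization, with a floor of 100 (6.64 on the log2 scale), and a difference of 1 is a 2-fold difference. The median over all 17742 genes was 0 in each comparison. With 1 array per group there was no replicate error and no test, so sizes are set beside the between-probe SD, the scatter of single probes of the same gene. That SD was 0.21 for knockdown minus control at day 4 (1035 genes), 0.27 at day 10 (1078 genes), 0.61 for control day 4 minus ESCs (1110 genes), 0.74 for control day 10 minus day 4 (1151 genes) and 0.71 for the knockdown course (1166 genes). Among bright probes, whose brighter array reached the 90th percentile, it was smaller: 0.12, 0.24, 0.26, 0.53 and 0.47 in the same order (86 to 115 genes). Where the text does not say bright, the SD over all probes past the filter is meant. The between-probe SD measures how far probes of 1 gene differ in a comparison, which can hold more than probe error. It does not cover differences between cultures. A gene was counted as apart where its brighter array reached the 50th percentile of probes (9.16) and the arrays differed at least 1.5-fold. Of the 81 genes 74 passed this filter on at least 1 array, 70 on all 5 arrays, and 7 on none. Most probes were bright: 47 of 81 lay above the 90th percentile (13.80) on all 5 arrays. Levels of different probes are not comparable, so only differences between arrays are read. Values for 5 arrays are given in the order ESCs, control day 4, knockdown day 4, control day 10, knockdown day 10.

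**Figure D1:**
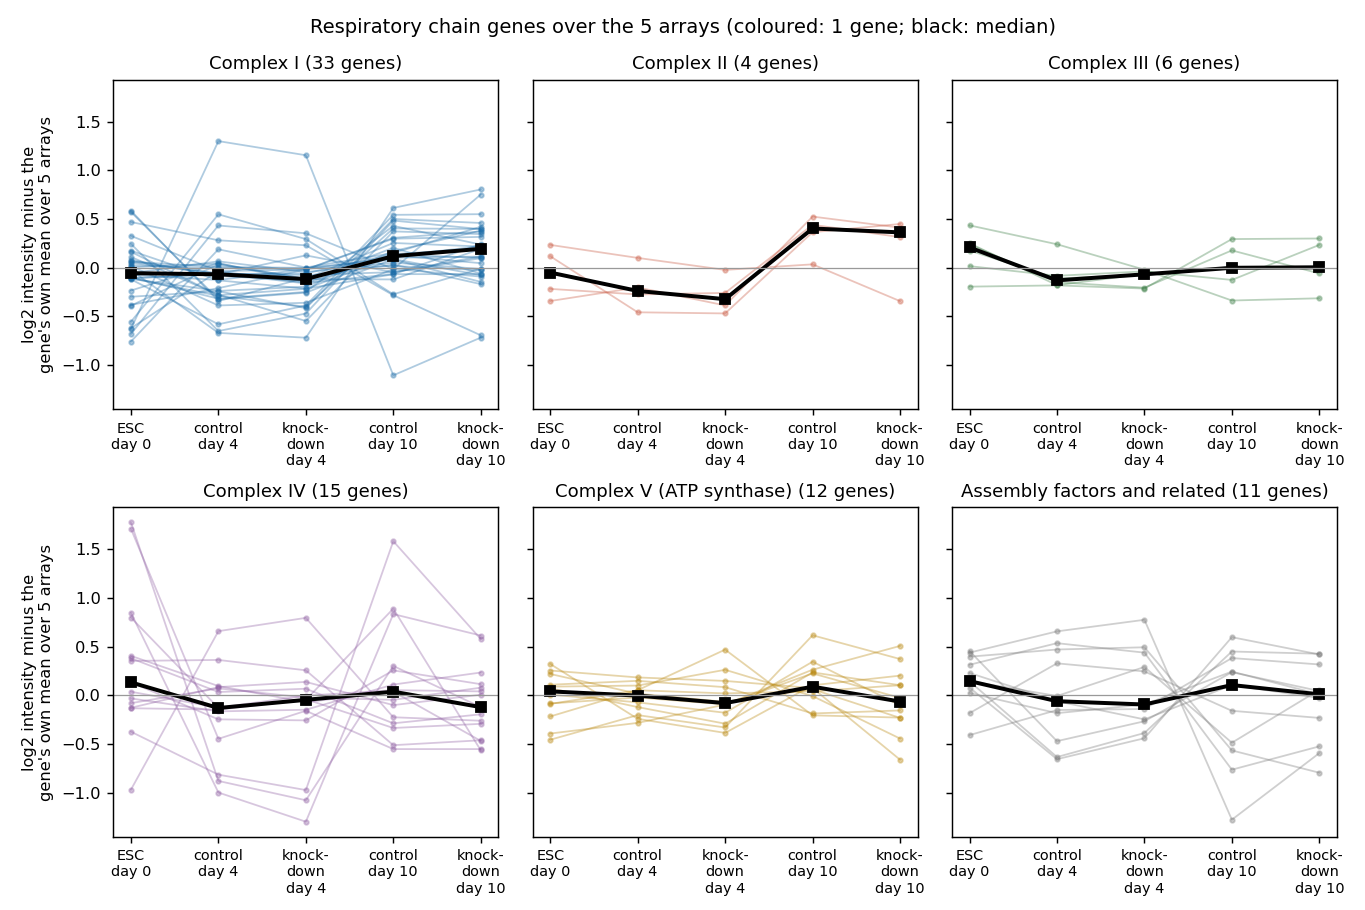
Log2 intensity of each gene minus its own mean over the 5 arrays (vertical axis), by array (horizontal axis), in 1 panel per complex. Each coloured line is 1 gene and the black line is the median. The median of complex II lies at -0.24 on the control day 4 array and is higher on both day 10 arrays, while the single genes of complex IV spread most widely.

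From ESCs to day 4, respiratory chain genes as a whole differed little in control cells and no single complex was higher or lower throughout. The median over the 81 genes was -0.13, and 65 of 81 differences were within the between-probe SD. Of the 71 genes past the filter 13 (18.3%) were at least 1.5-fold apart, 4 higher and 9 lower at day 4, where 45.2% of all genes past the filter were (23.7% higher and 21.5% lower). At 2-fold the count was 5, beside 26.8%, and among genes that reached the 90th percentile it was 6 of 57 at 1.5-fold, beside 36.6%. The medians were -0.11 for complex I, -0.10 for complex II, -0.24 for complex III, -0.31 for complex IV and 0.03 for complex V. With the values as deposited the median over the 81 genes was 0.20, beside 0.17 over all genes, so the sign of this small difference turns with the scaling, and the split of counted genes became 9 higher and 2 lower (5 and 6 after centring on the median of all genes).

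Among genes past the filter, the largest differences from ESCs to day 4 were those of Ndufa4l2, Ndufab1 and Cox6b2, of which Ndufa4l2 and Cox6b2 are tissue- or condition-dependent isoforms of complex IV. Cox6b2, known as the testis isoform of subunit 6b, had log2 intensities of 15.14, 13.30, 13.00, 15.13 and 14.91. Both day 4 arrays were low and the other arrays stood close together, with differences of -1.85 from ESCs to day 4 and 1.84 from day 4 to day 10 in control cells. Its second probe gave -1.69 and 2.17. Ndufa4l2, the paralogue of Ndufa4 induced by hypoxia, had levels of 12.56, 9.90, 9.70, 11.08 and 10.66. It was highest in ESCs, 6.32-fold above control day 4 cells, and intermediate at day 10. Cox8c, the testis isoform of subunit 8, was dim at 8.91, 6.75, 7.04, 6.64 and 6.64, above the floor in ESCs and at or near it on the other arrays, and it did not pass the filter. The main isoforms beside them were steadier: Ndufa4 lay at 17.20, 17.35, 17.25, 17.23 and 17.36, and Cox8a at 17.34, 16.96, 16.95, 17.46 and 17.32.

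A few complex I genes ran against the rest at day 4. Ndufab1, the mitochondrial acyl carrier protein that is also a complex I subunit, had levels of 9.72, 11.65, 11.50, 9.24 and 9.63. It was high on both day 4 arrays only, 3.81-fold above ESCs, and 5.31-fold lower again in control cells at day 10. Ndufb1, a small membrane-arm subunit, was also highest on both day 4 arrays, at 10.49, 11.59, 11.34, 10.77 and 11.04, but here ESCs were the lowest. Cox7b of complex IV was dim (7.77, 9.41, 9.54, 8.52 and 8.48) and was also highest on the day 4 arrays. Its testis isoform Cox7b2 was dim as well, highest in ESCs (8.26, 7.33, 7.42, 7.13 and 7.17), and did not pass the filter.

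Other accessory genes of complex I differed by less, each measured by 1 probe. Ndufa7, of the quinone module, lay at 15.66, 14.73, 14.97, 15.11 and 14.91 and Ndufs6, of the NADH module, at 11.70, 10.80, 10.87, 11.22 and 11.05. Both were highest in ESCs, with differences of -0.93 and -0.90 to control day 4 cells, and the assembly factor Ndufaf3 (14.06, 13.13, 13.33, 13.84 and 13.64) had the same highest array and a difference of -0.93. Ndufa2 (13.36, 13.95, 13.97, 14.29 and 14.36) and Ndufa5 (15.29, 15.71, 15.57, 15.94 and 15.90) were lowest in ESCs instead, with differences of 0.59 and 0.42. These lie within the between-probe SD of 0.61 but above the 0.26 of bright probes, to which both belong.

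From day 4 to day 10 in control cells, more respiratory chain genes were higher than lower, relative to the other genes of the arrays. The median over the 81 genes was 0.19, and among the 74 past the filter 51 were higher at day 10 and 23 (31.1%) lower, whereas 54.0% of all genes past the filter were lower. Of these 74, 25 (33.8%) were at least 1.5-fold apart, beside 60.9% of all genes: 18 were higher (27.8% of all genes were) and 7 lower (33.1% of all genes). At 2-fold the count was 13, beside 38.4%, and among genes that reached the 90th percentile it was 14 of 56 at 1.5-fold, beside 60.1%. This direction is relative to the other genes: with the values as deposited, which are lower on the control day 10 array for all genes (median -0.72), the median over the 81 genes was -0.48 and the split was 2 higher to 33 lower. After centring those deposited values on the median of all genes it was 0.24, with 16 higher and 9 lower. Both splits depend on the scaling and are not read as results about these genes. In these bulk cultures fewer cells of a type and less RNA per cell cannot be told apart.

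Complex II, succinate dehydrogenase, had the highest median of the complexes at day 10, 0.72 in control cells. Sdhb, the iron-sulfur subunit, had levels of 16.23, 16.17, 16.19, 16.89 and 16.76. Sdhd, a membrane anchor, lay at 15.61, 15.75, 15.57, 16.48 and 16.37, and the other anchor Sdhc at 15.16, 14.58, 14.57, 15.40 and 15.49. In all 3 both day 10 arrays stood above both day 4 arrays, by 0.72 (Sdhb), 0.73 (Sdhd) and 0.82 (Sdhc) in control cells, and by 0.57, 0.80 and 0.92 in knockdown cells. The control differences are near the between-probe SD of 0.74 for single genes and above the 0.53 of bright probes. Sdha, the flavoprotein subunit that oxidises succinate, did not share this course: its levels were 14.88, 14.74, 14.62, 14.68 and 14.30, with a difference of -0.07 in control cells and -0.32 in knockdown cells. With the values as deposited the complex II median was 0.05 in control cells, against -0.72 over all genes.

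The promoter windows of these genes are shown because Sdhb and Sdhd were both higher at day 10 and Sdha was not. They run from 250 bases before to 50 bases after the RefSeq start of the gene (build GRCm38.p6), and 66 of the 81 genes had a window. Capitals mark matches, on either strand, to textbook motifs of respiratory chain promoters: GCGCAN followed by GCGC for NRF1, CCGGAAG for ETS factors such as GABPA, AANATGGCG for YY1 and TNAAGGTCA for estrogen-related receptors, with TATAAA searched as well. The windows lie at chr13:74350191-74350490 on the minus strand (Sdha), chr4:140961021-140961320 on the plus strand (Sdhb) and chr9:50603800-50604099 on the minus strand (Sdhd).
Sdha: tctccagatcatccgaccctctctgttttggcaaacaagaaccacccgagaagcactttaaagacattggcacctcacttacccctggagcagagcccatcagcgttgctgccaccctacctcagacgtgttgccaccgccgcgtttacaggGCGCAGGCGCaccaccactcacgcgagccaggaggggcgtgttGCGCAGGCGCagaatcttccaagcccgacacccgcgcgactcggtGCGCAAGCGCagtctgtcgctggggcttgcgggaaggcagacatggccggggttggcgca
Sdhb: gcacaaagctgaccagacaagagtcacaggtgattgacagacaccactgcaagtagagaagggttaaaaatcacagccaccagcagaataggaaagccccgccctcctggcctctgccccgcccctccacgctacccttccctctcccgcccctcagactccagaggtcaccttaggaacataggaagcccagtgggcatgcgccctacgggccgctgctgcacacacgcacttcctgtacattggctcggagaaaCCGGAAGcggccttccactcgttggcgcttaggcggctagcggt
Sdhd: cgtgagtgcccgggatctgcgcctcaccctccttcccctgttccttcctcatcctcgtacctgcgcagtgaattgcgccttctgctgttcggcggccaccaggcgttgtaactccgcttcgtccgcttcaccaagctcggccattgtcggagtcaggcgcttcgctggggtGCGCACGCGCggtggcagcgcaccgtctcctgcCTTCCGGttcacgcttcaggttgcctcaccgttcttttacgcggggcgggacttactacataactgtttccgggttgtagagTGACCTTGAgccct
The Sdha window holds 3 NRF1 matches, whose first bases lie at -98, -55 and -10 from the start. The Sdhb window holds an ETS match at 7 bases after the start. The Sdhd window holds an NRF1 match at -79, an ETS match at -46 and an estrogen-related receptor match at 37. Sdhc had no window, and a link between matches and levels was not tested. A match is a description of letters and not of a bound site.

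Over the structural genes, 57 had a window, and 13 of them (22.81%) held an NRF1 match, beside 8.11% of all measured genes with a window. The YY1 motif was found in 14.04% of the structural genes and 4.12% of measured genes, the ETS motif in 19.30% and 14.28%, the estrogen-related receptor motif in 2 of 57 and 154 of 13980 genes, and TATAAA in 8.77% and 12.20%. Among all 27025 genes with a window of this length the shares were 5.19% for NRF1, 9.93% for ETS, 2.76% for YY1, 1.43% for estrogen-related receptors and 15.67% for TATAAA.

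Within complex I, the largest complex, the quinone module next to the membrane was higher at day 10 in control cells. All 7 of its measured genes were, beside 7159 of all 17742 genes, while 54.0% of genes past the filter were lower. The median of the module was 0.51, within the between-probe SD of 0.74, and its differences ran from 0.01 (Ndufs8) to 1.29 (Ndufa6). With the values as deposited, Ndufa6 alone of these genes was higher at day 10 in control cells. The NADH module had a median of 0.16 and the membrane arm 0.14. Ndufa6, an accessory subunit of the quinone module, had levels of 16.52, 15.87, 15.83, 17.16 and 17.35. Both day 10 arrays were the highest, 2.44-fold above day 4 in control cells and 2.88-fold in knockdown cells. Ndufs7, which carries the last iron-sulfur cluster before ubiquinone, lay at 14.99, 14.77, 14.84, 15.51 and 15.32, a difference of 0.75 in control cells. Its neighbour Ndufs3 differed by 0.65. Ndufs7 and Ndufs3 are single-probe differences near the between-probe SD, and with the values as deposited they were -0.01 and -0.07.

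In the NADH module, Ndufv3, the smallest flavoprotein subunit, lay at 16.20, 15.31, 15.49, 16.44 and 16.36, low on both day 4 arrays. All 3 of its probes were higher at day 10 than at day 4, by 1.14, 1.57 and 1.65 in control cells. Ndufs1, the largest iron-sulfur subunit of the peripheral arm, went the other way at 14.65, 14.46, 14.41, 13.89 and 13.48, a difference of -0.56 in control and -0.93 in knockdown cells. In the membrane arm Ndufb5 stood 1.13 higher at day 10 in control cells, with levels of 14.36, 13.90, 14.09, 15.02 and 15.03.

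None of the 6 genes of complex III was 1.5-fold apart in any of the 5 comparisons, where 6.35% to 60.9% of all genes past the filter were. Its median from ESCs to day 4 was -0.24, a larger difference than in complexes I, II and V. Uqcrfs1, the Rieske iron-sulfur protein that passes electrons to cytochrome c1, lay at 16.25, 16.26, 16.23, 16.73 and 16.74, with both day 10 arrays above the other 3. Uqcrq, a small subunit, lay at 15.88, 15.68, 15.42, 15.11 and 15.13, with both day 10 arrays lowest.

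Complex V had a median of 0.15 at day 10 in control cells. Its catalytic subunits Atp5a1 and Atp5b each differed by -0.11 between control day 10 and day 4, and the c-ring gene Atp5g3 by -0.01 (17.71, 17.98, 17.95, 17.97 and 18.03). The other measured c-ring gene, Atp5g1, lay at 15.32, 15.11, 15.03, 15.16 and 14.86. By the brightest probe, neither c-ring gene differed by more than the between-probe SD in any comparison but Atp5g1 at day 10, knockdown minus control (-0.29 against 0.27). A second Atp5g1 probe, dim and below the filter, gave -0.05 there. It went beyond the SD at day 4, knockdown minus control (0.32), from ESCs to day 4 (0.80) and from day 4 to day 10 in control cells (0.81).

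Assembly factors of complex I spread in both directions. Ndufaf7, a mitochondrial methyltransferase, lay at 13.12, 12.39, 12.60, 13.64 and 13.46, higher at day 10 than at day 4 by 1.25 in control cells. Ndufaf2, a chaperone of late assembly, lay at 14.46, 14.68, 14.58, 13.38 and 13.62, lower by 1.30 (log2 difference -1.30). Ndufaf6 was lower as well, at 14.09, 14.16, 14.18, 13.12 and 12.89. The ATP synthase gene Dmac2l, grouped with these related genes, lay at 12.56, 11.78, 12.03, 12.86 and 12.84, higher at day 10 than at day 4 by 1.09 in control cells (1.33 by its second probe). For knockdown minus control at day 10 its 2 probes were unlike: -0.02 by the probe used and -0.68, past 1.5-fold, by the second. The 8 complex I factors held 4 differences above 0 and 4 below 0 in control cells, with a median of -0.16.

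The knockdown cells followed a like course from day 4 to day 10. Their median over the 81 genes was 0.15, beside 0.19 in control cells, and 25 of 72 genes past the filter (34.7%) were at least 1.5-fold apart, 15 higher and 10 lower, beside 60.2% of all genes (27.9% higher and 32.3% lower). At 2-fold the count was 7, beside 36.8%, and at the 90th percentile 17 of 56 were 1.5-fold apart, beside 60.7%. With the values as deposited this median was -0.32, against -0.58 over all genes, and the split was 3 higher to 21 lower. Control and knockdown courses share no array, and across the 81 genes their differences had a Pearson r of 0.89 and a Spearman rho of 0.85, with 68 of 81 of the same sign. Across 12185 genes past the filter on any array r was 0.90. The points of a plot of this kind share the day, the medium and the probe, and genes are not independent replicates.

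**Figure D2:**
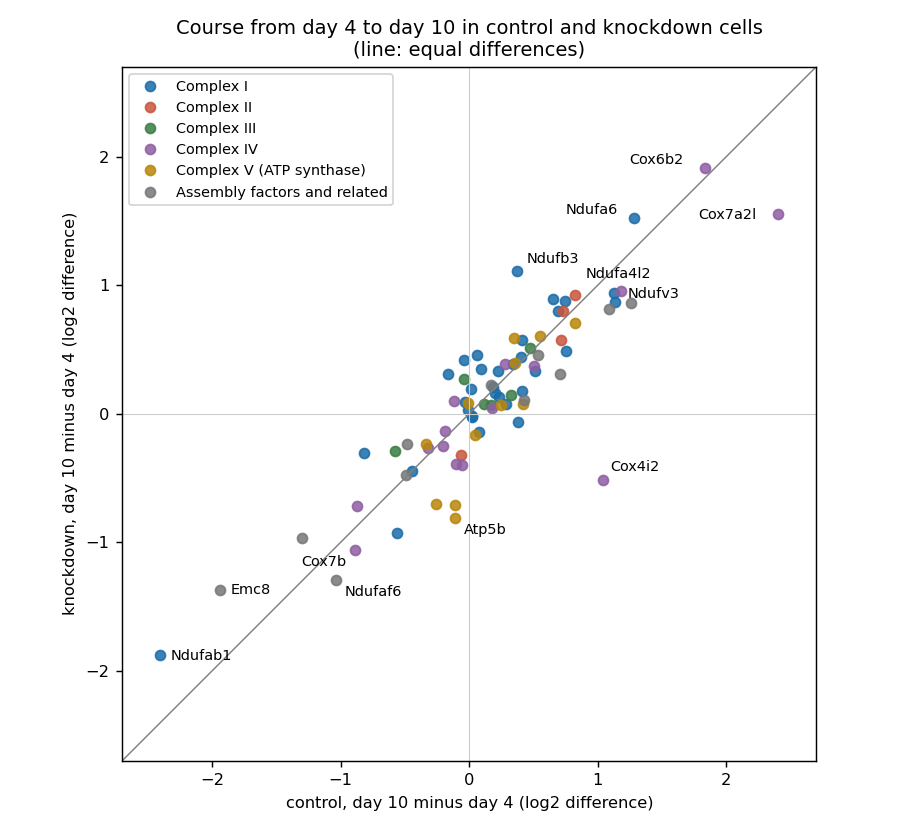
Log2 difference from day 4 to day 10 in control cells (horizontal axis) and in knockdown cells (vertical axis), 1 point per gene, coloured by complex, with the line of equal differences. Most points lie near the line, and Cox4i2 stands farthest from it, at 1.04 in control cells and -0.52 in knockdown cells.

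At day 4, knockdown and control cells lay close together in these genes. All 71 genes past the filter were less than 1.5-fold apart, so 0 were counted, beside 6.35% of all genes past the filter, 0 were 2-fold apart, beside 2.27%, and 0 of 54 at the 90th percentile were 1.5-fold apart, beside 2.43%. The median over the 81 genes was -0.01, the differences ran from -0.30 (Cox6b2) to 0.42 (Atp5k), and 71 of 81 were within the between-probe SD of 0.21. By complex the medians were -0.05 (I), -0.07 (II), 0.00 (III), 0.02 (IV) and -0.07 (V). Atp5k, a small membrane subunit of the ATP synthase, had levels of 14.59, 14.73, 15.14, 14.47 and 14.44, so that the knockdown day 4 array alone stood high. The SD of the differences over these 71 genes was 0.15, beside 0.36 over all genes past the filter. Among genes whose brighter array reached the 90th percentile, where the between-probe SD was 0.12, it was 0.13 for 54 respiratory chain genes and 0.29 for all 2386.

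At day 10 the knockdown array again lay close to the control array for most of these genes, with a median of -0.02, and 64 of 81 differences were within the between-probe SD of 0.27. Of 73 genes past the filter 5 (6.85%) were at least 1.5-fold apart, beside 15.8% of all genes. Cox4i2, Cox7a2l and Atp5b were lower in knockdown cells (8.49% of all genes were lower), and Ndufb3 and Emc8 were higher (7.3% of all genes). At 2-fold the count was 2 lower, Cox4i2 and Cox7a2l, beside 6.11% of all genes in either direction, and at the 90th percentile 2 of 54 were 1.5-fold apart, beside 10.1%. Cox4i2 and Cox7a2l passed the filter only through the control day 10 array, where they were high. The SD of the differences over the 73 genes was 0.32, beside 0.55 over all genes past the filter. With the values as deposited, where the knockdown day 10 array was brighter for all genes (median 0.37), the median over the 81 genes was 0.43 and the count was 13, 12 higher and 1 lower, beside 46.9% of all genes. After centring on the median of all genes the count was 4, 3 higher and 1 lower.

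**Figure D3:**
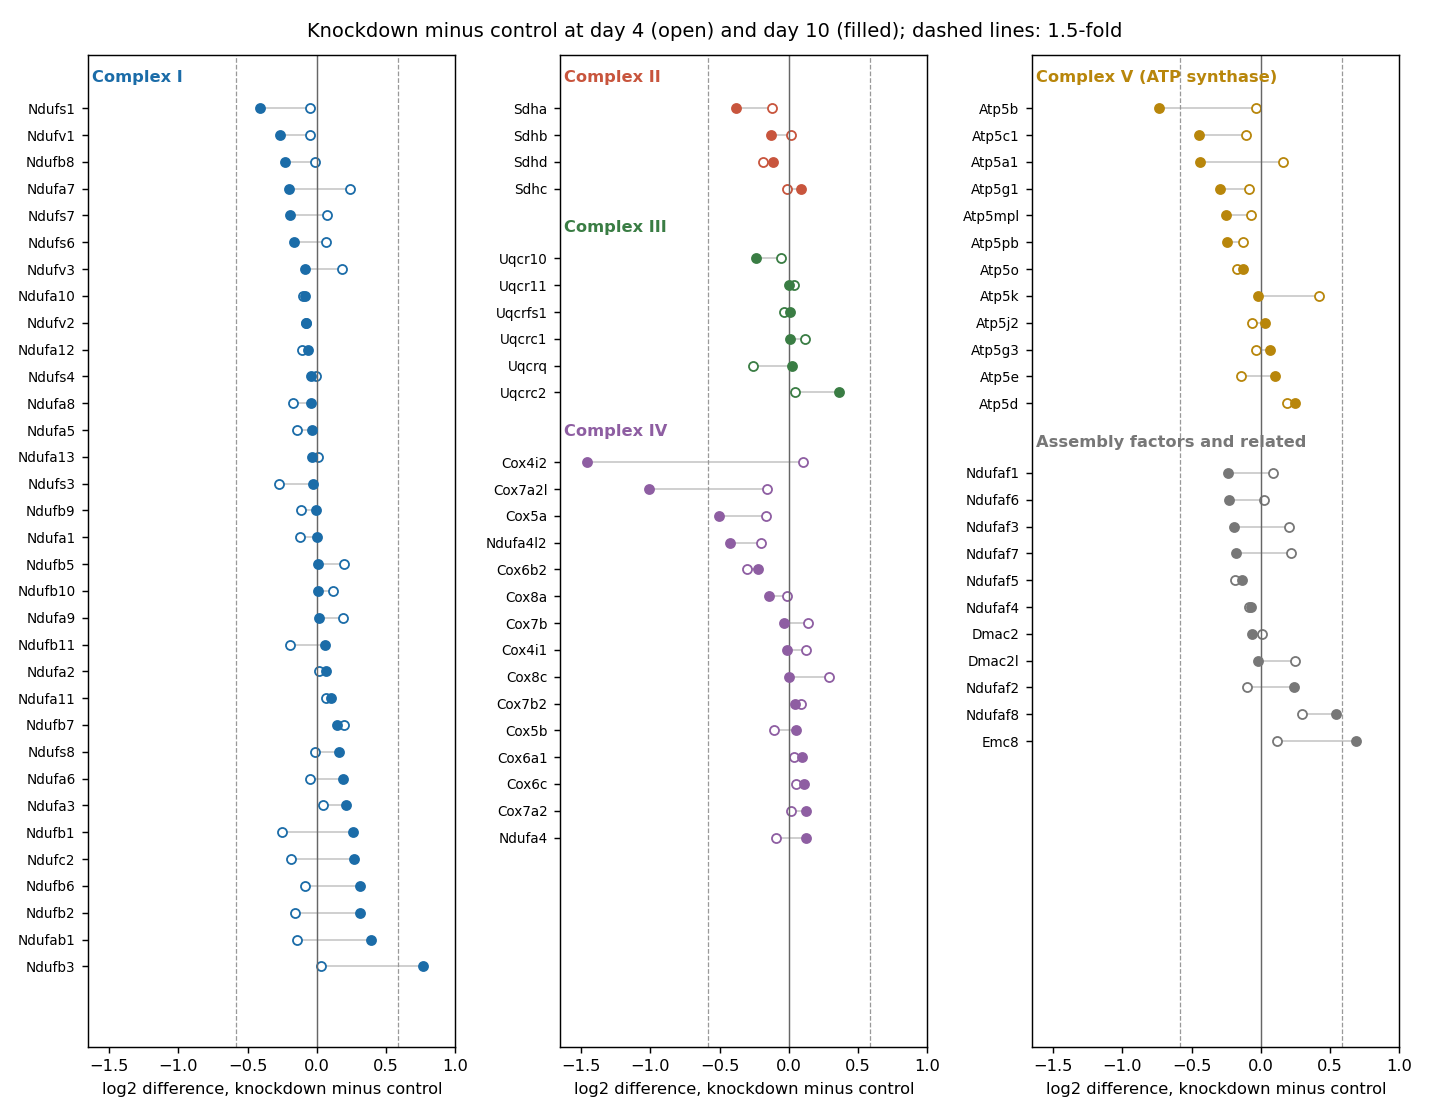
Log2 difference of knockdown minus control at day 4 (open circles) and day 10 (filled circles) for each of the 81 genes, by complex and ordered by the day 10 value, with dashed lines at 1.5-fold. All open circles lie inside the dashed lines, and Cox4i2, Cox7a2l, Atp5b, Ndufb3 and Emc8 have filled circles outside them.

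Cox4i2 encodes the alternative isoform of subunit 4 of complex IV, known from lung and from low oxygen. Its levels were 8.98, 8.97, 9.07, 10.01 and 8.55, so the control day 10 array alone was high and the knockdown day 10 array was the lowest. The difference at day 10 was -1.46, a level 2.75-fold lower in knockdown cells. The ubiquitous isoform Cox4i1 lay at 17.13, 16.97, 17.09, 17.15 and 17.13, a difference of -0.01.

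Cox7a2l, which joins complexes III and IV into supercomplexes, was dim at 7.24, 6.80, 6.64, 9.20 and 8.20, with the knockdown day 4 array at the floor. It was above its day 4 level on both day 10 arrays and 2.01-fold lower in knockdown than in control cells at day 10. Its control day 10 level of 9.20 is barely past the filter of 9.16, and neither this gene nor Cox4i2 was counted with a filter at the 75th percentile. Its relative Cox7a2 lay at 17.21, 17.08, 17.10, 17.36 and 17.48, a difference of 0.12 at day 10, while a dimmer second Cox7a2 probe gave -0.39.

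The 3 muscle-type isoforms left out of the 81 genes were lower in knockdown cells at day 10 as well. Cox7a1 had levels of 11.33, 9.47, 9.08, 12.52 and 10.55 and a difference of -1.96, Cox8b (6.64, 6.64, 6.64, 11.05 and 9.86, the first 3 arrays at the floor) one of -1.20, and Cox6a2 (8.82, 8.99, 9.23, 10.23 and 9.23) one of -0.99. The 9 ubiquitous or main isoforms of complex IV had a median of 0.05 at day 10 and none was 1.5-fold apart. Cox5a, a matrix-facing subunit, was the lowest of them at -0.51, with levels of 17.54, 17.23, 17.07, 17.17 and 16.67. With the values as deposited Cox5a differed by -0.09, against 0.37 over all genes.

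**Figure D4:**
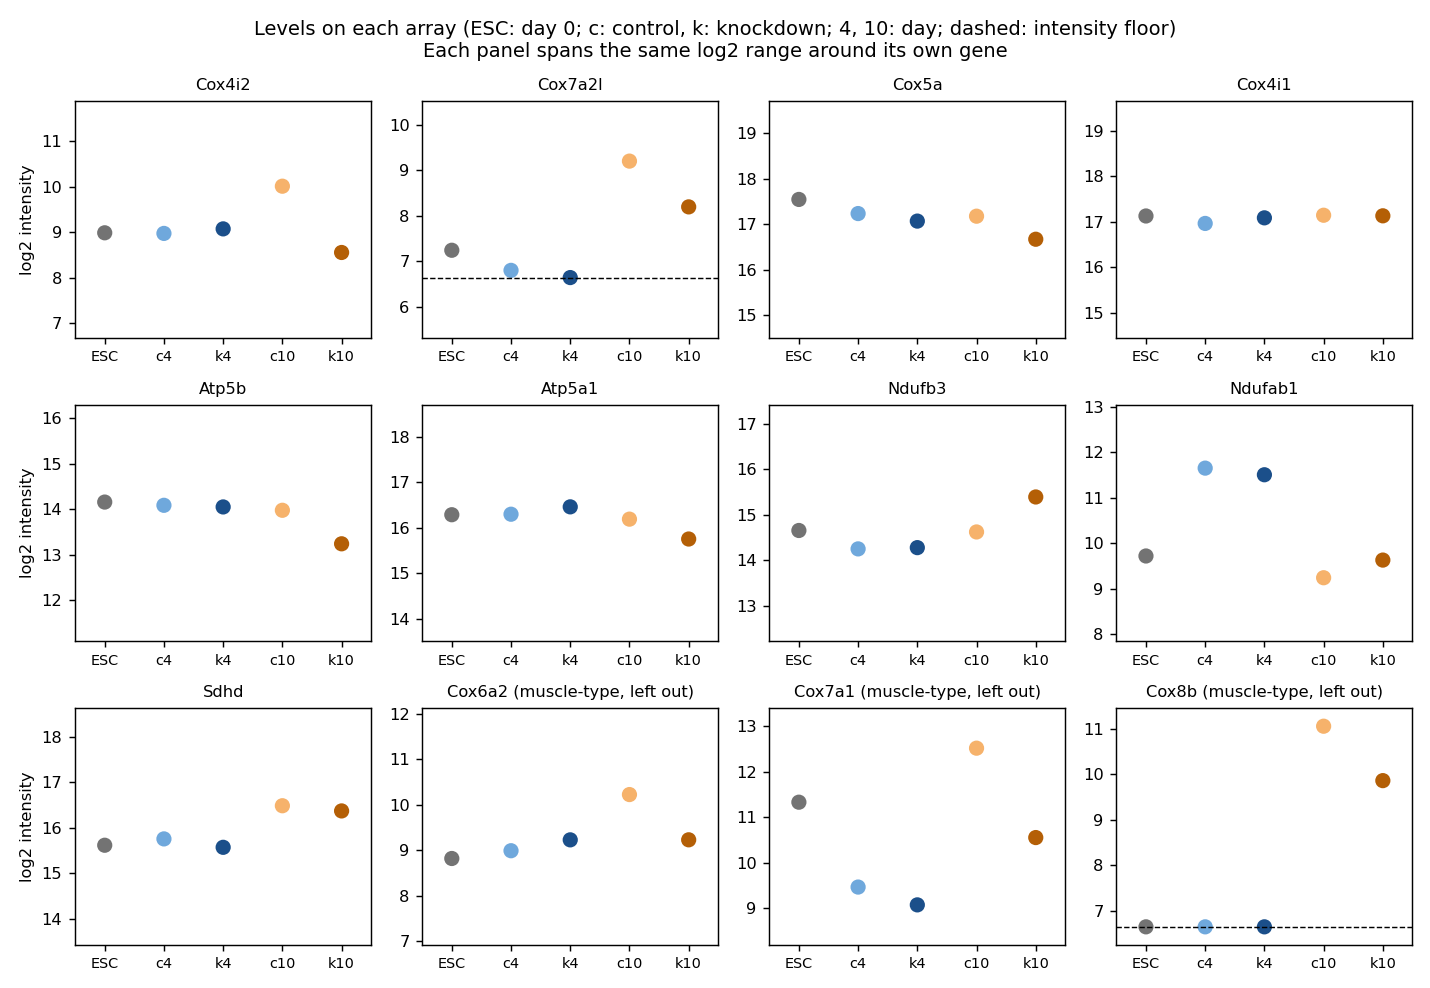
Log2 intensity (vertical axis) on each of the 5 arrays (horizontal axis) for 9 respiratory chain genes and for the 3 muscle-type isoforms left out of the set, with equal vertical spans and the floor dashed. Cox4i2 and the 3 muscle-type isoforms are highest on the control day 10 array, while Cox4i1 lies between 16.97 and 17.15 on all arrays.

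The catalytic subunits of the ATP synthase were the lowest bright genes of the day 10 comparison outside complex IV. Atp5b, the beta subunit that makes ATP, had levels of 14.16, 14.09, 14.05, 13.98 and 13.24. The knockdown day 10 array alone was low, 1.67-fold below control (a difference of -0.74). Atp5a1, the alpha subunit, lay at 16.28, 16.29, 16.46, 16.19 and 15.75, a difference of -0.44, and Atp5c1, the central stalk, at 9.88, 9.80, 9.69, 10.21 and 9.77, one of -0.45. With the values as deposited the differences were -0.21, -0.02 and -0.01, against 0.37 over all genes, and after centring on that median Atp5b was -0.58, just short of 1.5-fold. The other 2 genes of the F1 head, Atp5d (dim) and Atp5e, differed by 0.24 and 0.10. The whole of complex V had a median of -0.19.

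Taking the 11 catalytic core genes of complexes I to V that were analysed, 9 were below 0 at day 10, beside 42.2% of all genes. Their median was -0.19, within the between-probe SD of 0.27, and only Atp5b was 1.5-fold apart. The lowest after the ATP synthase pair were Ndufs1 at -0.41, Sdha at -0.38 and Ndufv1, the NADH-binding subunit, at -0.27. The Ndufv1 levels were 15.62, 15.46, 15.41, 15.75 and 15.48. Ndufs8, an iron-sulfur subunit, differed by 0.16 and Uqcrfs1 by 0.01. Ndufv2, also of the NADH module, was dim (7.74, 8.85, 8.77, 8.40 and 8.33), did not pass the filter and differed by -0.08. These 11 genes differed by a median of -0.04 at day 4, with 8 below 0, beside 40.7% of all genes and 48.2% of those past the filter. Genes at the floor on both arrays differ by 0, which lowers the shares over all genes.

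Ndufb3, an accessory subunit of the membrane arm of complex I, was the highest structural gene at day 10. Its levels were 14.66, 14.25, 14.28, 14.63 and 15.40, so the knockdown day 10 array alone was high, 1.70-fold above control. In the membrane arm 12 of 18 genes lay above 0, beside 8145 of all 17742 genes, with a median of 0.08. In the NADH module 7 of 8 lay below 0, with a median of -0.08, beside 42.2% of all genes and 46.4% of those past the filter. Both medians are within the between-probe SD of 0.27. Emc8 (14.34, 14.56, 14.67, 12.62 and 13.30), a subunit of the endoplasmic reticulum membrane complex, was 1.61-fold higher, with 0.53 from its second probe. The assembly factor Ndufaf8 lay at 13.23, 13.08, 13.37, 12.60 and 13.14, a difference of 0.54 that misses 1.5-fold. Uqcrc2, a core protein of complex III, differed by 0.36 (16.90, 16.80, 16.85, 16.76 and 17.12).

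The windows of Atp5b (chr10:128083057-128083356, plus strand) and Ndufb3 (chr1:58586147-58586446, plus strand) are shown as the lowest bright and the highest structural gene of this comparison.
Atp5b: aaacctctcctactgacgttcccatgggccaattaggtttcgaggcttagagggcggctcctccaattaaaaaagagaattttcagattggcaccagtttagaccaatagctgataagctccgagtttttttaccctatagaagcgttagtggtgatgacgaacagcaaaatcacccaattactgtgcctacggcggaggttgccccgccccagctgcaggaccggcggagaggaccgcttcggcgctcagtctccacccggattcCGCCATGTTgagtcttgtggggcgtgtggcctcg
Ndufb3: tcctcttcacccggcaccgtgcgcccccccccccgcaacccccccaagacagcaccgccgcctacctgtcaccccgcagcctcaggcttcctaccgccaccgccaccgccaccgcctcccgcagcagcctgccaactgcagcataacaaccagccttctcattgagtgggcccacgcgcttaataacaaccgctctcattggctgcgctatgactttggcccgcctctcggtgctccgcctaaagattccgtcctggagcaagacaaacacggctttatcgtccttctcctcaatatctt
Capitals mark a YY1 match in the Atp5b window on the opposite strand, whose first base lies 17 bases after the start. The Ndufb3 window holds none of the 5 motifs searched, which says only that those letters are not in it.

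The day 4 and day 10 knockdown differences, which share no array, did not run together across genes: over the 81 genes r was 0.09 and rho 0.10, with 44 of the same sign, and over 12185 genes past the filter r was 0.11. Atp5b differed by -0.04 at day 4 and -0.74 at day 10, Cox4i2 by 0.10 and -1.46, and Ndufb3 by 0.03 and 0.77.

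**Figure D5:**
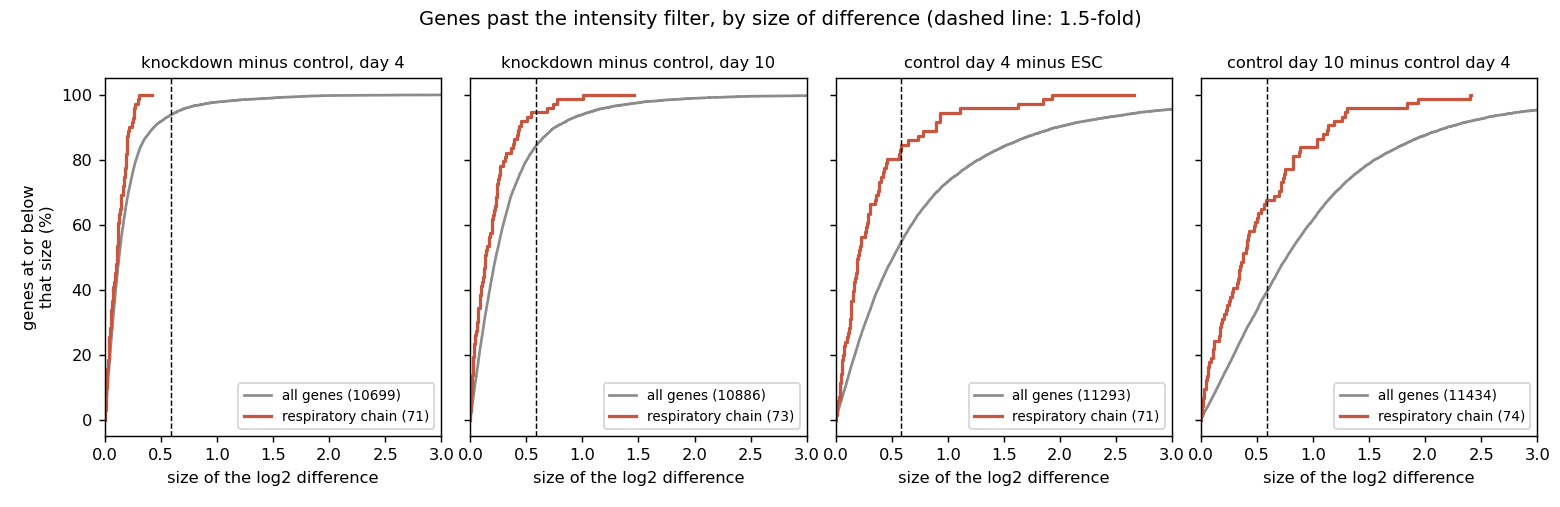
Share of genes (vertical axis, percent) whose log2 difference is at or below a given size (horizontal axis), for respiratory chain genes (red) and all genes (grey) past the filter in 4 comparisons, with 1.5-fold dashed. In each panel the red curve lies above the grey one at 1.5-fold: 0 of 71, 5 of 73, 13 of 71 and 25 of 74 respiratory chain genes lie beyond it, from left to right.

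Other mitochondrial genes were set beside these through lists drawn up by function. The 69 mitochondrial ribosomal protein genes, which translate the mitochondrial subunits, had a median of -0.36 from day 4 to day 10 in control cells, where the respiratory chain genes had 0.19, and of 0.10 for knockdown minus control at day 10. Fatty acid oxidation genes, of which 11 of 14 were measured, had a median of 1.20 at day 10 in control cells, with 8 higher and 1 lower by at least 1.5-fold, beside 27.8% and 33.1% of all genes past the filter. In the knockdown comparison at day 10 their median was -0.08 and 1 was lower (8.49% of all genes past the filter were), the acyl-CoA dehydrogenase gene Acadm at -0.75.

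Of the tricarboxylic acid cycle, which feeds complexes I and II, 12 of 13 genes were measured. Their median for knockdown minus control at day 10 was -0.20. Of the 12, 10 lay below 0, beside 42.2% of all genes and 46.4% of those past the filter. Of the 11 past the filter 2 were 1.5-fold lower and 0 higher, where 8.49% of all genes were lower and 15.8% apart in either direction, so a count this small is not a result about the list: Idh3a, of isocitrate dehydrogenase, at -0.74 (15.58, 14.95, 14.75, 15.36 and 14.62) and Cs, citrate synthase, at -0.60 (15.24, 15.01, 14.81, 15.30 and 14.70). Coenzyme Q synthesis genes (10 of 10 measured) had a median of -0.19 with 0 of 7 past the filter 1.5-fold apart, genes of mitochondrial transcription and DNA (9 of 10) one of -0.17 with 0 of 8, carriers and porins (8 of 10) one of -0.11 with 0 of 6, and electron carriers and partners (9 of 12) one of 0.03 with 0 of 9. Assembly factors outside the naming rule (32 of 37) had a median of -0.03, and 1 of 27 was lower, Coa7, a complex IV assembly factor, at -1.04 (10.76, 10.88, 10.83, 11.01 and 9.97). At day 4 none of the measured genes of these lists past the filter was 1.5-fold apart between knockdown and control, beside 6.35% of all genes past the filter.

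Of regulators of respiratory chain genes, 10 of 11 were measured, the median at day 10 was 0.02, and 2 of 9 past the filter were 1.5-fold lower in knockdown cells, beside the same 8.49%. Esrrg, an estrogen-related receptor of heart muscle, lay at 6.64, 7.94, 7.05, 11.96 and 10.23, a difference of -1.73. Ppargc1a, the coactivator of mitochondrial biogenesis, was at the floor on the first 3 arrays and lay at 10.81 and 8.79 at day 10. Nrf1 differed by 0.42, Gabpa by 0.10 and Esrra by -0.38.

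Markers of several cell types differed between the same 2 day 10 arrays. Of the 8 cardiomyocyte markers 7 were 1.5-fold lower in knockdown cells and Tnnt2 was higher (3.05), with a median of -1.68, while 5 of 6 liver-type endoderm markers were lower (median -3.28) and 5 of 5 epicardium markers higher (median 2.38). The endothelium median was -0.24, that of fibroblast and matrix 0.06, that of the 4 measured blood markers -0.52 and that of the 3 measured proliferation markers -0.10. Brown fat also expresses the muscle-type isoforms, and its 4 markers had a median of -0.13, with 2 below 0 and 2 above. Cidea alone passed the filter, with a log2 difference of -1.17, and it was highest in ESCs (12.20, 7.87, 8.12, 9.29 and 8.12). Elovl3 was at the floor in control cells and Ucp1 in knockdown cells. The part of these markers in the respiratory chain differences was not tested.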

How the data were processed

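The authors deposited probe intensities on a linear scale, 1 column per array. Agilent Feature Extraction is listed in the submitters' processing notes (version 10.7.1.1), and no source used here gives a normalization step. RNA was amplified and carried Cy5, per the labels. Deposited medians ran from 344 to 745, so quantile normalization across all 5 arrays was applied to the linear intensities, values under 100 were raised to 100 (19.0 to 19.1% of probes per array) and log2 was taken. Some intensities were at or below 0, on the knockdown day 10 array for 1050 probes. Of 26423 probes 20377 had 1 gene symbol, 0 had several and 6046 were unnamed here. By a list of GRCm38.p6 genes, 18213 probes kept a current symbol, 2126 were updated from a synonym and 38 kept an older one. Promoters are from RefSeq.

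Differences were taken within 5 pairs of arrays, each group being the sample its label names. Python 3.11.15, numpy 2.4.6, pandas 2.3.3, statsmodels 0.14.6 (loess) and matplotlib 3.10.9 were used, and the scripts were tested on simulated data. The between-probe SD is the SD of the gap between log2 differences of 2 probes of a gene, scaled to a single probe. Precision is limited by the number of arrays. The genes, lists, motifs and thresholds were chosen with earlier results of these data known. The text names, in each pair, the 5 genes most above and the 5 most below 0 among those past the filter, and all 2-fold differences, catalytic core genes, isoform pairs and up to 3 genes per other list. Sdhc, Sdhd, Atp5d, Atp5e, Ndufa8, Ndufb9, Atp5pb, Gabpa and Esrra fall outside that rule and were named after their values were seen.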

Additional observations from a re-analysis of the deposited data

How the results depend on the processing

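No paired analysis was possible because each group held 1 array, and for the same reason no replicate could be left out. The alternatives were the values as deposited, scaling to a common 75th percentile, loess centring, floors of 50 and 200, the mean of all probes, no filter, filters at the 75th and 90th percentile, a 2-fold threshold, structural subunits only, genes past the filter only, and no very bright spots (above 60000). Centring on the median of all genes was added after seeing the data. The 5 medians over all 81 genes were recomputed under these except the filters and the 2-fold threshold, and the 30 by complex under the 8 rescaled or reprocessed versions only. They moved by less than the between-probe SD in each but the values as deposited, which shift all genes by 0.20 (knockdown minus control, day 4), 0.37 (day 10), 0.17 (control day 4 minus ESCs), -0.72 (control day 10 minus day 4) and -0.58 (knockdown course). With those values the median of knockdown minus control at day 10 was 0.43 over all 81 genes, 0.48 for complex I, 0.33 for II, 0.50 for III, 0.27 for IV, 0.29 for V and 0.38 for assembly factors and related genes. At day 4 it was 0.15 for complex II and 0.30 for assembly factors and related genes, and from control day 4 to day 10 it was -0.64 for complex III and -0.59 for assembly factors and related genes. Ndufaf3 (-0.079), Ndufs3 (-0.074) and Ndufs7 (-0.015), 1.5-fold higher at day 10 in control cells, turned sign, as did Ndufa8 (-0.012), Ndufb9 (-0.080) and Atp5pb (-0.093), 6 of 25 genes apart there.

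Counts of genes at least 1.5-fold apart differed by more than 1.5 times in these cases. Counts given without a share of all genes only show how a setting moves them, and are not results about these genes. Knockdown minus control gave 1 at day 4 and 13 at day 10 with the values as deposited, and 3 and 2 at day 10 with filters at the 75th and 90th percentile. With the filter at the 90th percentile the counts were 6 for control day 4 minus ESCs and 14 for control day 10 minus day 4. At 2-fold they were 2 for knockdown minus control at day 10, 5 for control day 4 minus ESCs, 13 for control day 10 minus day 4 and 7 for the knockdown course. The 5 genes apart at day 10 kept their sign in all 8 rescaled or reprocessed versions, and 3 stayed counted with the values as deposited, centred or not. Atp5b was then less than 1.5-fold apart, and Cox7a2l was below the filter, as it was with scaling to the 75th percentile. The cause of these shifts was not tested. Dim probes such as Cox7a2l are limited by their signal over the floor.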
